A study of Homo sapiens with 4 samples.

Results

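The genes described here are 40 genes of the endoplasmic reticulum (ER) unfolded protein response, taken from the 28775 genes of the count table by their symbols. They were listed for their known place in the ATF6 and XBP1 branches of this response, as sensors, chaperones, disulfide enzymes, degradation genes and genes of protein entry and export, a rule that uses no measured value, although the list was drawn up with earlier results of these data known. RNA was sequenced from HEK293T cells, a transformed human embryonic kidney line, in 2 MORC2 KO samples and 2 WT samples. MORC2 is a nuclear ATPase that compacts DNA and takes part in gene silencing. The MORC2 KO samples were bulk cultures electroporated with Cas9 protein and a guide RNA against MORC2, 1 guide for each sample, and were not single clones. The WT samples were unedited HEK293T cells, and the labels name no drug or stressor for any group. All 40 genes were measured and passed the filter on low counts.

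Proteins that enter the ER are folded there by chaperones and joined by disulfide bonds. When unfolded proteins build up, the chaperone BiP (gene HSPA5) leaves the sensors IRE1 (gene ERN1), PERK (gene EIF2AK3) and ATF6. IRE1 splices the mRNA of XBP1, ATF6 is cut to release a transcription factor, and both then raise the genes of chaperones and of ER-associated degradation, in which misfolded proteins are drawn out of the ER and destroyed. PERK slows translation and raises the factor ATF4, which other kinases also raise when amino acids run short. A rise of ATF4 targets can thus occur with or without the chaperone branches. The changes of both gene lists in MORC2 KO cells are described side by side, without a test between them. Counts per gene do not tell spliced from unspliced XBP1 mRNA, and cleaved ATF6 and phosphorylated PERK are proteins, so the activation steps themselves were not measured.

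Some of the promoters of these genes hold sequence features by which the response is usually recognised. Since the genes were listed for their known place in the response, an excess of these features among them is not independent evidence. RefSeq promoter windows on GRCh38.p14, each from 250 bases before to 50 bases after the start of a gene, were found for 36 of the 40 members, and not for DERL1, DERL3, PDIA3 and SEC24D. The ER stress response element (ERSE, CCAAT and CCACG with 9 unspecified bases between them, on either strand), bound by NF-Y and ATF6, was present in 8 of these 36 windows (22.2%), against 22 of 27305 windows of all genes (0.0806%). The genes were HSPA5, HSP90B1, CALR, CANX, CRELD2, ERO1B, SERP1 and XBP1. The shorter ERSE-II (ATTGG, any base and CCACG, on either strand) was present in HERPUD1, HYOU1 and SDF2L1, against 15 of all 27305 windows (0.0549%). A core of the element that ATF4 binds with C/EBP factors (TGATGNAA) was present in HERPUD1 alone among the members, against 3.67% of all windows, and in 6 of 34 windows of a list of ATF4 and amino acid response genes. The UPRE core (TGACGTGG) was found in HYOU1, where it overlaps an ERSE-II match, and in 0.795% of all windows. It was present in 7 of 42 windows (16.7%) of further ER folding and quality control genes that are not members. The stretches below are shown because they mark the chaperone branches (ERSE and ERSE-II, the first 6 genes) and the ATF4 branch (HERPUD1, which has both, and ASNS). Capitals mark the fixed letters of each match, and each stretch is written on the strand of its gene. The CRELD2 and SDF2L1 matches, the second of HSP90B1 and the ATF4 core of HERPUD1 lie on the opposite strand, so their letters appear as the reverse complement. A match is a description of letters and not of binding.
HSPA5 (chr9:125241381-125241419, minus strand): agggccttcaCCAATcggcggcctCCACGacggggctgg
HSP90B1 (chr12:103930206-103930349, plus strand): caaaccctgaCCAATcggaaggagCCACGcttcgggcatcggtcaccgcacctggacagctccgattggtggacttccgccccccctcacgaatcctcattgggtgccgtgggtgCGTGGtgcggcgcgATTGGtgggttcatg
CRELD2 (chr22:49918544-49918582, plus strand): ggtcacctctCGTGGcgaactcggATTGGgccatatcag
XBP1 (chr22:28800593-28800631, minus strand): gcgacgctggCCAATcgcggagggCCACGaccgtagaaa
SDF2L1 (chr22:21642104-21642134, plus strand): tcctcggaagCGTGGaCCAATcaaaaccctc
HERPUD1 (chr16:56931956-56932045, plus strand): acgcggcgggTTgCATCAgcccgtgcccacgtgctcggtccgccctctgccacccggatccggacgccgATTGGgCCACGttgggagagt
ASNS (chr7:97872459-97872486, minus strand): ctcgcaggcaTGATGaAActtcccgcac
These stretches lie between 24 and 204 bases before the RefSeq start of their genes.

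The libraries held between 53970043 and 64312514 read pairs counted on genes. MORC2 itself was at 51.2 and 55.0 CPM (counts per 1000000 counts of the library, with TMM scaling factors) in KO and at 86.2 and 87.7 CPM in WT, a log2 fold change of -0.71 (adjusted p = 1.37e-04 in edgeR's quasi-likelihood test, standard error 0.06). The KO level was 61.1% of the WT level. The fit over 16675 tested genes called 98 genes higher and 5 lower in MORC2 KO, at an adjusted p under 0.05. MORC2 KO replicate 2 stood apart, with a median absolute log2 difference of 0.120 from KO replicate 1 and of 0.141 and 0.163 from the WT samples, whereas KO replicate 1 differed from the WT samples by 0.0880 and 0.0882. Of 7 genes that mark HEK293T cells all were tested, with a summed level between 655 and 692 CPM. Of 10 markers of other cell types 5 were tested, with a summed level between 5.07 and 6.82 CPM, and PTPRC, CD3E, HBB and KRT5 had at most 2 counts in any sample. The methods call the WT samples independent replicates without saying what was separate, so the p-values measure the spread between these 4 samples, which may be partly technical.

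No gene of the unfolded protein response was called in MORC2 KO cells, in either direction. This count of 0 of 40 stands beside 0.618% of all tested genes called, 0.588% higher and 0.03% lower. DESeq2 also called 0 of the 40. At an unadjusted p under 0.05 in edgeR, 2 members were higher (ERO1B and SYVN1) and 6 were lower (SDF2L1, CRELD2, SEC61B, SELENOS, CALR and PDIA6), which is 5% and 15% of the members. Of all tested genes 8.14% and 6.17% met this, and of the genes above a mean log2 CPM of 6 it was 3.97% and 12.2%. The smallest adjusted p among the members was 0.112, that of SDF2L1. The 95% confidence intervals of the log2 fold changes give the range of change that the fit allows for each member, gene by gene. They are not adjusted over genes and rest on 2 samples a group, whose spread may be partly technical. Across the 40 members the highest upper bound was 0.30 (ERN1), and in 39 members the whole interval lay within 0.5 of no change. Counts of the members ran from 146 for EDEM2 to 103312 for CANX, and the exception to the range of 0.5 was EDEM2, the member with the fewest counts. Fewer cells with a transcript and less of it per cell cannot be told apart in these bulk samples.

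Levels per length of exon spanned a wide range. CALR (calreticulin, a lectin chaperone that holds glycoproteins until they fold) was the most abundant member in WT at 514.9 CPM per kb. HSP90B1 (the ER form of HSP90), CANX (calnexin, the membrane-bound partner of calreticulin), P4HB (protein disulfide isomerase) and HSPA5 followed, at 330.5, 316.5, 280.3 and 222.5 CPM per kb in WT. The sensors were far lower, with WT levels of 30.0 CPM per kb for ATF6B, 17.2 for ATF6, 5.44 for EIF2AK3 and 2.32 for ERN1. DERL3 and EDEM2 closed the order at 1.59 and 1.43 CPM per kb in WT. These last values are uncertain, since 89.2% of the exonic bases of DERL3 lie across SMARCB1 on the other strand and 80.9% of those of EDEM2 are shared with the read-through gene MMP24-AS1-EDEM2, and read pairs that overlap more than 1 gene were not counted. The same holds for TXNDC5, a disulfide enzyme, with 83.1% of its exonic bases shared. The 40 members together took 0.977% and 0.902% of the reads in KO and 0.990% and 1.01% in WT, on the TMM scale.

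**Figure D1:**
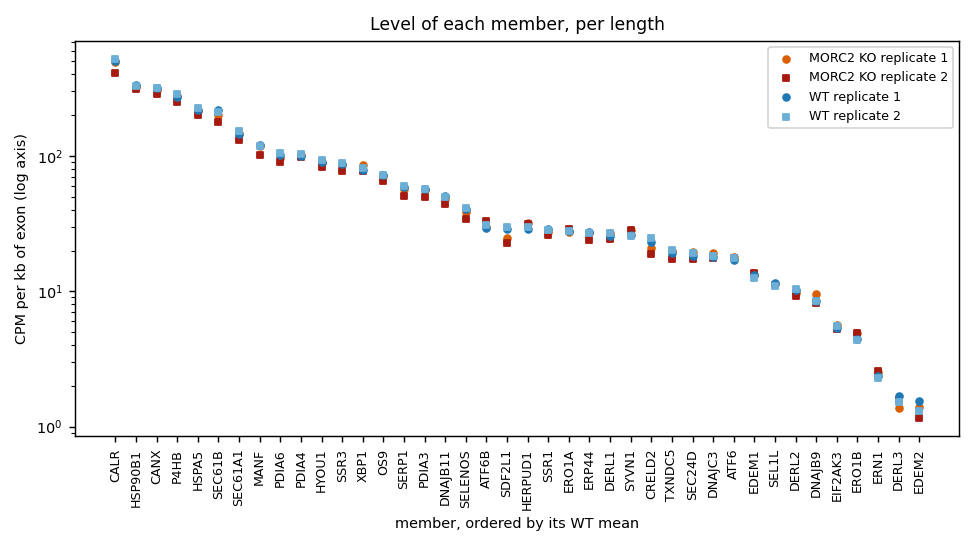
Level of each of the 40 members in CPM per kb of exon (log axis), with 1 point for each of the 4 samples and the members ordered by their WT mean. The levels run from 514.9 CPM per kb for CALR to 1.43 for EDEM2 in WT, and for nearly every member the 4 samples lie close together on this scale.

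The sensors and transcription factors had positive log2 fold changes in 5 of 5 genes, none called, with a median of 0.05. Positive values made up 51.5% of all tested genes and 29.6% of those above a log2 CPM of 6. ERN1 was at 20.1 and 20.4 CPM in MORC2 KO and at 18.55 and 18.04 CPM in WT. Both KO samples were above both WT samples, by a log2 fold change of 0.14 (95% interval -0.01 to 0.30, adjusted p = 0.376 in edgeR). XBP1, whose own promoter holds an ERSE, was at 165.0 and 150.8 CPM in KO and at 151.1 and 156.4 CPM in WT. These groups overlapped, KO replicate 1 being the highest and KO replicate 2 the lowest of the 4 samples, and the log2 fold change was 0.04 (95% interval -0.10 to 0.17). EIF2AK3 was at 26.5 and 24.9 CPM in KO and at 25.4 and 25.9 CPM in WT, with overlapping groups and a log2 fold change of 0.0045 (95% interval -0.14 to 0.15). Of its exonic bases, 16.6% overlap an antisense gene. ATF6 and its relative ATF6B, membrane-held transcription factors, had log2 fold changes of 0.05 and 0.07, and the KO samples were above the WT samples for ATF6 only.

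HSPA5, the chaperone most used as a sign of ER stress (chromosome 9 of T2T-CHM13v2.0 from 137433170 to 137439661, minus strand), was not higher in MORC2 KO. Its level was 846.8 and 780.6 CPM in KO and 863.8 and 881.5 CPM in WT, so that both KO samples lay below both WT samples. The mean was 813.7 ± 46.8 CPM (SD, n = 2) in KO and 872.7 ± 12.5 CPM (SD, n = 2) in WT, and the log2 fold change was -0.10 (adjusted p = 0.512 in edgeR, standard error 0.07). As a fold, KO over WT was 0.932 with a 95% interval of 0.841 to 1.03. HSP90B1 and HYOU1 (an HSP110-like exchange factor of BiP) lay below WT in both KO samples as well, with log2 fold changes of -0.06 and -0.10. Such an order was seen in 23.4% of all tested genes and 40.8% of those above a log2 CPM of 6.

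SDF2L1 and CRELD2 showed the lowest log2 fold changes of the 40 members. SDF2L1, a partner of the ER DnaJ proteins, was at 20.4 and 18.7 CPM in KO and at 23.6 and 24.8 CPM in WT, a log2 fold change of -0.31 (adjusted p = 0.112 in edgeR, standard error 0.07). CRELD2, an ER-resident disulfide isomerase, was listed with the chaperones and co-chaperones and is not among the disulfide enzymes below. CRELD2 was at 36.1 and 32.5 CPM in KO and at 39.4 and 42.4 CPM in WT, a log2 fold change of -0.25 (adjusted p = 0.164 in edgeR, standard error 0.07). In both genes both KO samples lay below both WT samples, as in 23.4% of all tested genes, and KO replicate 2 was the lowest sample. Without the filter on low counts both were called lower (2 of the 40 members, 5%). That fit called 0.80% of all its tested genes lower, and 2.12% of those above a log2 CPM of 6. In a fit with a replicate block (the replicate number added to genotype) SDF2L1 was called lower (adjusted p = 0.0444 in edgeR), or 2.5% of the members. The block fit called 0.25% of all tested genes lower, and 0.24% of those above a log2 CPM of 6. MANF, a secreted ER stress factor, and DNAJB11, a DnaJ partner of BiP, were at log2 fold changes of -0.12 each. DNAJB9 and DNAJC3, further DnaJ proteins, went the other way at 0.06 and 0.03, with overlapping groups. KO replicate 1 was the highest sample for both of these.

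The lectin chaperones CALR and CANX lay below WT in both KO samples, as did 23.4% of all tested genes and 40.8% of those above a log2 CPM of 6. CALR was at 935.2 and 780.0 CPM in KO and at 962.4 and 994.1 CPM in WT, so KO replicate 2 stood well below the other 3 samples. Its log2 fold change was -0.19 (95% interval -0.37 to -0.0073, adjusted p = 0.333 in edgeR). CANX was at 1669 and 1564 CPM in KO and at 1730 and 1731 CPM in WT, a log2 fold change of -0.10 (95% interval -0.25 to 0.06).

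Among the 8 disulfide enzymes, none was called and 2 had a positive log2 fold change. Positive changes were seen in 51.5% of all tested genes and 29.6% of those above a log2 CPM of 6. ERO1B, an oxidase that recharges the disulfide isomerases, was at 24.4 and 24.5 CPM in KO and at 22.3 and 21.7 CPM in WT. The groups did not overlap and its log2 fold change of 0.15 (95% interval 0.0047 to 0.30, adjusted p = 0.335 in edgeR) was the highest of the 40 members. Its paralog ERO1A was at 0.02 with overlapping groups. The isomerases PDIA6, PDIA3, P4HB and PDIA4 were at -0.14, -0.12, -0.09 and -0.02, and both KO samples were below both WT samples only for PDIA6 and PDIA3. Across all tested genes 23.4% had this order, and of those above a log2 CPM of 6 it was 40.8%. The further disulfide enzymes ERP44 and TXNDC5 were at -0.09 and -0.10, with overlapping groups. PDIA6 shares 32.7% of its exonic bases with ATP6V1C2 on the other strand, and PDIA3 shares 16.5% with ELL3.

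Of the 10 degradation genes 3 had a positive and 7 a negative log2 fold change, none called. The positive share was 51.5% of all tested genes and 29.6% of those above a log2 CPM of 6. SYVN1, the ubiquitin ligase HRD1 that marks misfolded ER proteins, was at 86.0 and 86.5 CPM in KO and at 78.97 and 78.05 CPM in WT, a log2 fold change of 0.14 (adjusted p = 0.308 in edgeR, standard error 0.06). HERPUD1, which helps to assemble the HRD1 complex, was at 91.4 and 90.3 CPM in KO and at 81.8 and 85.1 CPM in WT, a log2 fold change of 0.12 (adjusted p = 0.352 in edgeR, standard error 0.06). In both genes the KO samples were above the WT samples and nearly equal to each other, unlike the chaperones, in which KO replicate 2 was lower. EDEM1, a lectin that extracts glycoproteins for degradation, was at 0.06. SELENOS, a selenoprotein of the retrotranslocation machinery, was at 79.0 and 70.8 CPM in KO and at 83.4 and 85.1 CPM in WT, a log2 fold change of -0.17 (adjusted p = 0.275 in edgeR, standard error 0.06). SEL1L, the adaptor of HRD1, was at -0.0045. The derlins, membrane proteins of the retrotranslocation step, were at -0.12 (DERL2), -0.11 (DERL3) and -0.04 (DERL1), and the lectins EDEM2 and OS9 at -0.17 and -0.10. Both KO samples lay below both WT samples for SELENOS, DERL2 and OS9 alone among the 10. The same order held for 23.4% of all tested genes and 40.8% of those above a log2 CPM of 6.

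All 6 translocation and export genes had negative log2 fold changes, from -0.18 to -0.02. In 5 of them both KO samples lay below both WT samples. That order held for 23.4% of all tested genes and for 40.8% of those above a log2 CPM of 6. Positive log2 fold changes made up 51.5% and 29.6% of these sets, in turn. SEC61B, a subunit of the channel through which proteins enter the ER, was at 113.6 and 101.2 CPM in KO and at 123.4 and 119.2 CPM in WT, a log2 fold change of -0.18 (adjusted p = 0.273 in edgeR, standard error 0.07). SERP1, which binds the channel under stress, followed at -0.14. The channel subunit SEC61A1 and the TRAP complex genes SSR3 and SSR1 were at -0.11, -0.10 and -0.08. SEC24D, a coat subunit of vesicles that leave the ER, was the exception with overlapping groups.

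**Figure D2:**
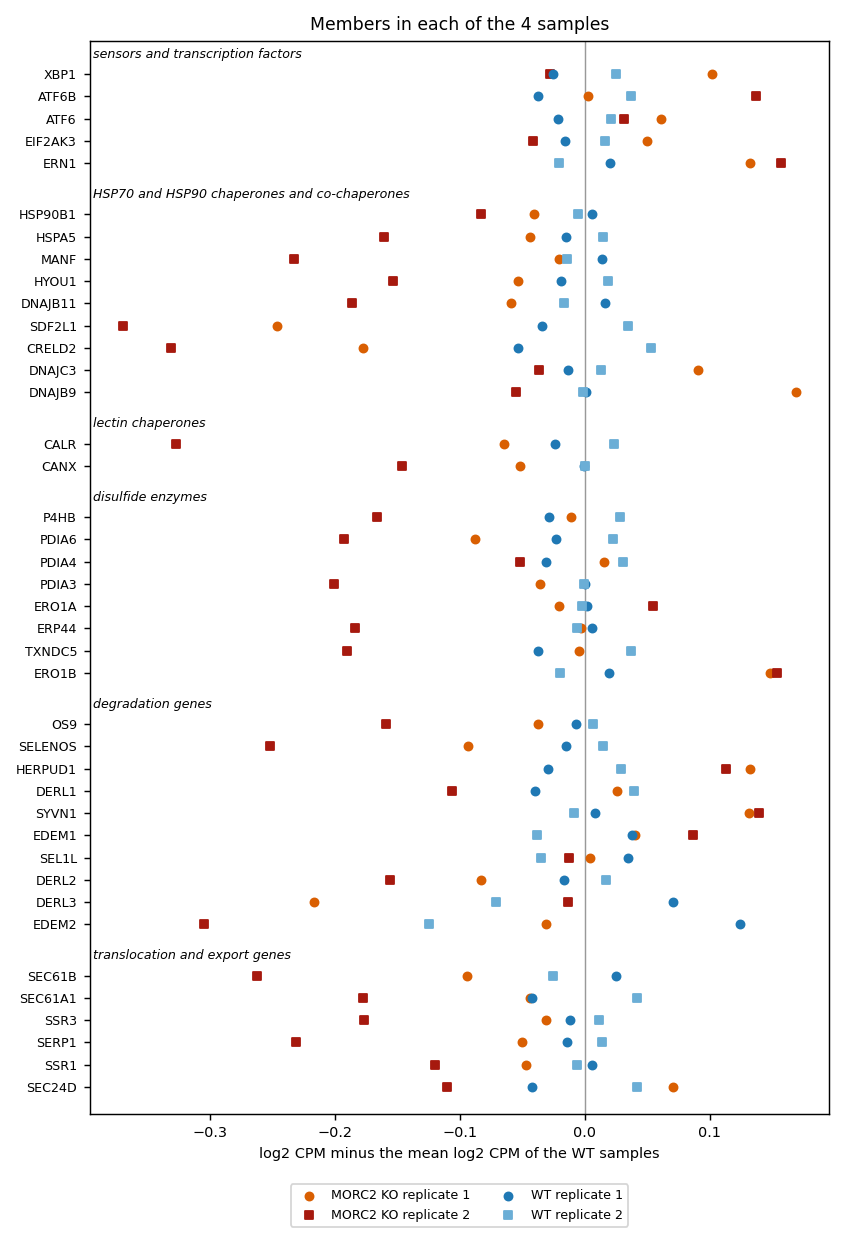
Each member in each of the 4 samples, as log2 CPM minus the mean log2 CPM of the WT samples, grouped by role and ordered by WT level per length. MORC2 KO replicate 2 was the lowest sample in 30 of the 40 members, against 33.9% of all tested genes. Both KO points of ERN1, ATF6, SYVN1, HERPUD1, EDEM1 and ERO1B lie to the right of both WT points.

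**Figure D3:**
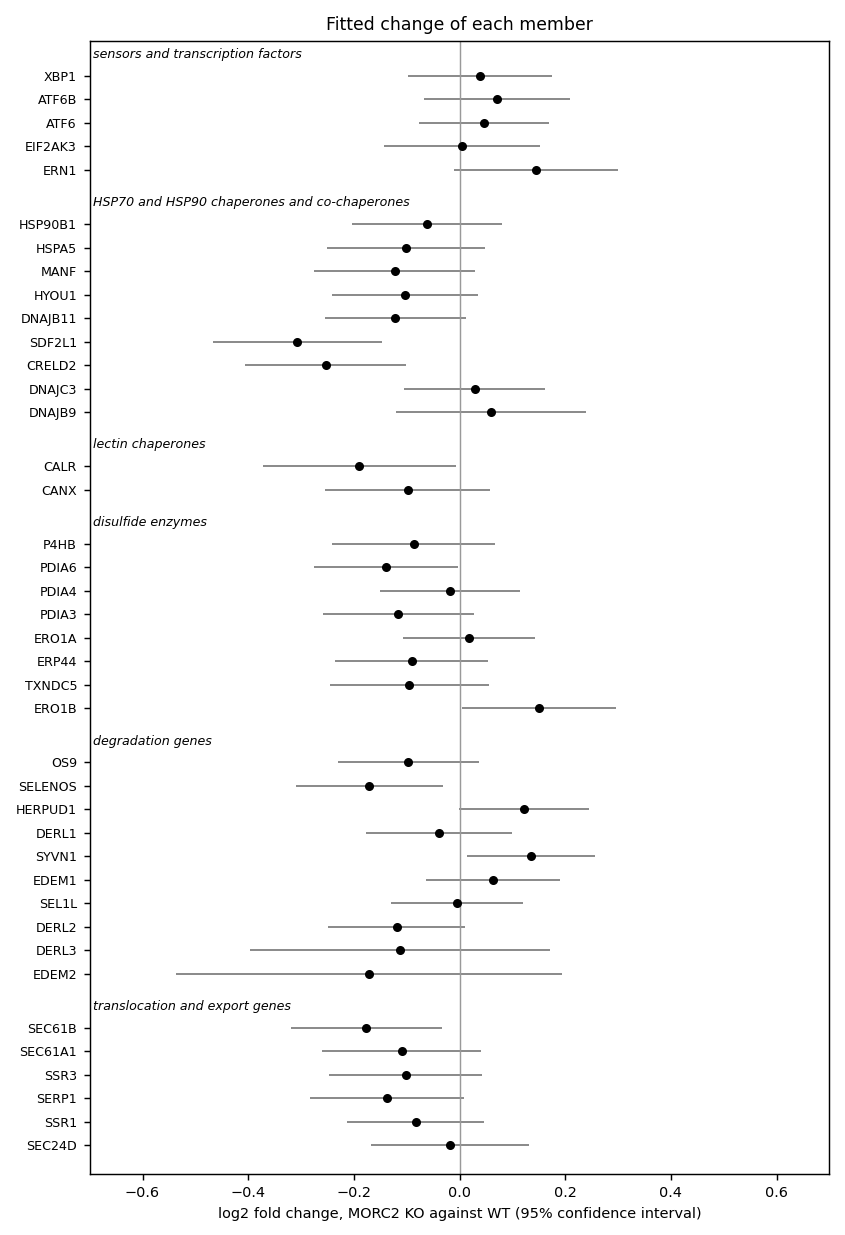
Fitted log2 fold change of each member (point) with its 95% confidence interval (line) from edgeR. The points run from -0.31 for SDF2L1 to 0.15 for ERO1B, and the highest upper bound is 0.30.

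Most members lay slightly below WT, as did most genes of like abundance. Of the 40 members 12 (30%) had a positive log2 fold change, with a median of -0.09. Among the 4108 tested genes above a mean log2 CPM of 6 (the members' median was 6.68), 29.6% were positive, with a median of -0.05, against 51.5% and 0.0054 for all tested genes. Both KO samples lay below both WT samples in 19 members (47.5%) and above them in 6 (15%). The corresponding shares were 23.4% and 24.1% of all tested genes, and 40.8% and 13.3% of the genes above a log2 CPM of 6. With the trend on abundance removed by loess offsets, the median of the members was -0.01 and 17 of them were positive. The median was -0.09 to -0.10 with RLE scaling, DESeq2 or GC content and length offsets, and -0.05 with library size alone, which moved the median of all genes to 0.05.

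The members were lower in KO replicate 2 than in KO replicate 1. Relative to the WT mean, the median of the members was -0.03 in KO replicate 1 and -0.15 in KO replicate 2. KO replicate 2 was the lowest of the 4 samples in 30 of the 40 members, against 33.9% of all tested genes. It was below KO replicate 1 in 33 of the 40 members, against 49.3% of all tested genes. Genes above a log2 CPM of 6 had medians of -0.02 in KO replicate 1 and -0.07 in KO replicate 2, relative to the WT mean. Without KO replicate 1, 19 members (47.5%) were called lower, HSPA5, CALR and CANX among them, and none higher. That fit called 9.58% of all tested genes higher and 11.6% lower, and 29.4% of the genes above a log2 CPM of 6 lower. It takes the lone KO sample to vary as the WT samples do. Without KO replicate 2 no member was called, 15 were positive and the median was -0.02. The guide sequences given in the methods overlap almost fully, so the guides target nearly the same site. Since each KO sample had its own guide, guide and sample cannot be told apart.

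**Figure D4:**
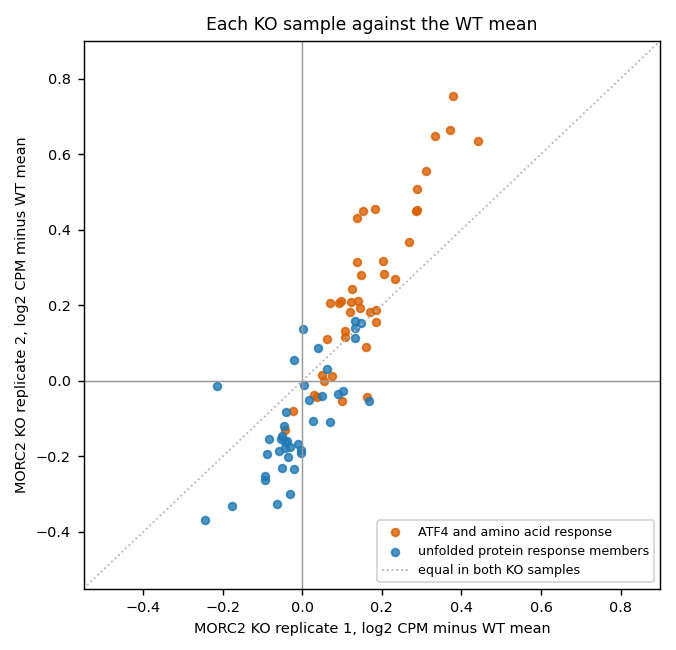
Log2 CPM minus the WT mean in MORC2 KO replicate 1 (horizontal axis) and replicate 2 (vertical axis), for the 40 members and the 41 tested ATF4 and amino acid response genes. The members have medians of -0.03 and -0.15 on these axes and the ATF4 list 0.15 and 0.21, and the WT mean is shared by both axes.

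The 11 members with an ERSE or ERSE-II match are described beside those without. Their log2 fold changes ran from -0.31 to 0.15 with a median of -0.10, and 3 were positive (XBP1, HERPUD1 and ERO1B). The 25 members whose windows held neither motif had a median of -0.09, and 9 of them were positive. No test was made of this difference.

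The wider machinery of ER folding and quality control held no called gene. Of 50 further genes (signal peptidase and oligosaccharyltransferase subunits, KDEL receptors, VCP and its cofactors, coat proteins and others), all were tested. At an unadjusted p under 0.05 in edgeR none was higher and 9 were lower, DESeq2 called none either, 10 were positive and their median was -0.07. Of all tested genes 6.17% were lower at that p and 51.5% positive, and of the genes above a log2 CPM of 6 it was 12.2% and 29.6%. The 3 genes with the smallest p were TMX1, a membrane-bound thioredoxin, at -0.18, SEC61G, a channel subunit, at -0.16, and PPIB, the ER cyclophilin, at -0.17. PPIB shares 57.6% of its exonic bases with SNX22 on the other strand.

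The ATF4 and amino acid response genes held 7 called genes. Of 42 genes listed 41 were tested (not GDF15). Of these 41, 7 were called higher and none lower, beside 0.588% of all tested genes called higher and 0.03% lower. No gene of this list was lower at an unadjusted p under 0.05 in edgeR, against 6.17% of all tested genes. The list was written with earlier calls on these samples known, so its count is not independent evidence. The called genes were SLC7A11 (cystine transport), JDP2 (a repressor of the AP-1 family), PCK2 (mitochondrial phosphoenolpyruvate carboxykinase), SLC1A4 (neutral amino acid transport), ASNS (asparagine synthesis), PSAT1 (serine synthesis) and CTH (cysteine synthesis). PSAT1 was at 499.4 and 560.0 CPM in KO and at 404.1 and 414.6 CPM in WT, and rose by 0.37 on the log2 scale (adjusted p = 0.0333 in edgeR, standard error 0.07). ASNS, whose promoter holds the element printed above, was at 27.3 and 31.9 CPM in KO and at 23.1 and 21.8 CPM in WT, a log2 fold change of 0.40 (adjusted p = 0.0482 in edgeR, standard error 0.08). It shares 69.5% of its exonic bases with the read-through gene CZ1P-ASNS. In the whole list 37 of 41 log2 fold changes were positive (90.2%), with a median of 0.18. Positive values made up 51.5% of all tested genes and 29.6% of those above a log2 CPM of 6. In 32 of the 41 genes both KO samples lay above both WT samples. That order held for 24.1% of all tested genes and for 13.3% of those above a log2 CPM of 6. Of the 7 calls, SLC7A11 was not made by DESeq2 (adjusted p = 0.186). With at least 10 counts in every sample JDP2 and ASNS were not called by edgeR (adjusted p = 0.0545 and 0.0555), and ASNS was not in the newer edgeR form (0.0506). With loess offsets on abundance SLC1A4, JDP2 and ASNS were not called (adjusted p = 0.0563, 0.0694 and 0.0758 in edgeR). The calls also moved with the choice of samples: without WT replicate 2, 3 of the list were called, and without KO replicate 1, 26.

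The mRNA of ATF4 itself and 4 further genes of this list are given for comparison. ATF4 mRNA was at 863.3 and 824.0 CPM in KO and at 836.2 and 856.1 CPM in WT, a log2 fold change of -0.0043 (95% interval -0.15 to 0.14). DDIT3 (CHOP), the factor induced late in ER stress, was at 14.43 and 12.99 CPM in KO and at 13.9 and 13.1 CPM in WT, a log2 fold change of 0.02 (95% interval -0.17 to 0.21), although 14.4% of its exonic bases overlap other genes. PPP1R15A (GADD34), which restores translation after PERK signalling, was at -0.0034. TRIB3 and CHAC1, ATF4 and CHOP targets, were at 0.21 and 0.37, above WT in both KO samples but not called (adjusted p = 0.277 and 0.0776 in edgeR). These 5 genes are outside the naming rule and were picked with their values in view, and the called genes of the list are ATF4 targets too, so no branch upstream of ATF4 is told apart by them. No test compared the members with the ATF4 list as lists, and both rest on the same 4 samples.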

How the data were processed

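RNA-seq of poly-A RNA from 2 MORC2 KO and 2 WT samples of HEK293T cells was analysed. The authors used Subread 2.0.6 and the T2T-CHM13v2.0 genome to align paired reads and deposited raw counts of read pairs per RefSeq gene from featureCounts 2.0.6. Per the file headers, multi-mapping reads were counted, strand was ignored and pairs on more than 1 gene were left out. Columns of other samples numbered 0. Symbols were matched by Entrez identifier for 28763 of 28775 genes. Promoter sequences came from RefSeq on GRCh38.p14, and no coordinates were converted.

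Genes were filtered with filterByExpr, scaled with TMM and tested on genotype alone with edgeR 4.0.16 in R 4.3.3, using the older quasi-likelihood form, as the authors' earlier version does, and Benjamini-Hochberg adjustment over 16675 genes at 0.05. Standard errors are the log2 fold change over the square root of F, and the 95% intervals, which are not adjusted over genes, use the same error. Replicates differed by more than counting noise (chi-square per degree of freedom of 16.8 in KO and 6.56 in WT) and each counted as 1 sample. Scripts were tested on simulated data. With 2 samples a group an exact permutation test cannot reach 0.05, so none was run. Total counts of 53970043 to 64312514 per sample made counting error small except for low genes such as EDEM2 and DERL3.

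The members and lists were chosen with earlier results of these data known. The genes named are all 40 members, MORC2 and the called genes of each other list. Of a list with fewer than 3 called, the 3 with the smallest p are named. Cell type markers are named by level, and other genes named outside this rule are said to be. Alternatives were other tests (DESeq2 1.42.0), scalings, filters, loess offsets (span 0.3) on abundance or on GC content and length, the replicate number as a term, and leaving out each sample.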

Additional observations from a re-analysis of the deposited data

How the results depend on the processing

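No member was called higher in any alternative fit. None was called lower with the newer edgeR form, DESeq2, RLE scaling, library size alone, at least 10 counts in every sample, or loess offsets on abundance or on GC content and length. The median of the members stayed below 0 in each of these fits. Leaving out the filter on low counts gave 463 genes higher and 182 lower in all, with 2 members lower, 15 ATF4 genes higher and 7 heat shock genes lower. GC content and length offsets gave 187 and 34 in all, 12 ATF4 genes higher and 2 heat shock genes lower. DESeq2 gave 17 genes lower in all. The cause of these shifts was not tested. Across the fits that each left out 1 sample, the genes called ranged from 86 to 1598 higher and from 9 to 1936 lower, the members called lower from 0 to 19, the other ER genes from 0 to 1 higher and from 0 to 19 lower, the ATF4 genes called higher from 3 to 26 and the heat shock genes called lower from 0 to 13. The highest of these came without MORC2 KO replicate 1. In those fits the lone sample of a group is taken to vary like the others.

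The replicate numbers of KO and WT share no source in the labels, and deviations by number correlated at -0.124 over the tested genes. With the replicate block, 237 genes were higher and 42 lower, with 1 member lower, 11 ATF4 genes higher and 3 heat shock genes lower. With the numbers crossed, which was added once the data had been seen, 903 genes were higher and 809 lower. In that fit 5 members, 8 other ER genes and 9 heat shock genes were lower, and 25 ATF4 genes were higher. Genes called lower made up 12.5% of the members, 4.85% of all tested genes and 11.9% of those above a log2 CPM of 6. MORC2 stayed called in each fit.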

Other observations

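The heat shock genes, a list of 15 cytosolic and mitochondrial chaperones and co-chaperones, were all tested and none was called by edgeR or DESeq2. None had a positive log2 fold change, the median was -0.19, and 9 were lower at an unadjusted p under 0.05, against 6.17% of all tested genes and 12.2% of those above a log2 CPM of 6. Both KO samples lay below both WT samples in 12 of the 15, against 23.4% of all tested genes and 40.8% of those above a log2 CPM of 6. HSPA1B, an inducible HSP70, was at 1255 and 812.6 CPM in MORC2 KO and at 1495 and 1566 CPM in WT, a log2 fold change of -0.57 (adjusted p = 0.134 in edgeR, standard error 0.14). HSPA1A, at -0.60, is a near-identical copy, so reads of these genes cannot be told apart with certainty. BAG3, a co-chaperone of HSP70, was at 65.0 and 56.6 CPM in KO and at 72.0 and 71.6 CPM in WT, a log2 fold change of -0.24. Among the other 13 genes of the list without HSPA1A and HSPA1B the median was -0.18. As in the ER members, the shift was larger in KO replicate 2, with a median of -0.28 against the WT mean, than in KO replicate 1, with -0.10. The part of that sample's overall difference in this shift was not tested.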
